A study of Mus musculus with 16 samples.

Results

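Mast cell and basophil genes, 10 of the 24306 genes on the array, were examined in lungs of 8 week old mice overexpressing Fra-2, an AP-1 transcription factor encoded by Fosl2. The members were chosen by name: the proteases Cpa3, Tpsb2, Tpsab1, Cma1, Mcpt4 and Mcpt8, the receptor genes Ms4a2, Fcer1a and Kit, and Hdc, which encodes histidine decarboxylase. Every feature, that is every spot of the array, whose gene symbol was one of these was used, which gave 15 features. All 10 genes were measured, and no filter on low values was applied in the main analysis.

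The arrays were made from homogenate of right lungs of 16 mice, with 4 females and 4 males of either genotype and 1 array counted as 1 mouse. TG mice were Fra-2 tg/wt, and the WT mice were their littermates, all from a line of mixed BL6CBA origin crossed back to C57BL6/J. TG cells also carry a GFP reporter, and the promoter of the transgene is not given in the sources used here. Labels name no animal, so that p-values measure the spread between these samples. The comparison asked whether lungs with the transgene differ in the transcripts of these cells, and it was made over 8 WT and 8 TG mice, in each sex, and between proteases and receptors.

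Mast cells are long-lived tissue cells and basophils are short-lived blood cells, and both bind IgE through the high affinity receptor FcεRI and release histamine and proteases when antigen cross-links it. In the mouse, connective tissue type mast cells store the chymases Mcpt4 and Mcpt5 (the product of Cma1), tryptases and carboxypeptidase A3 in granules on heparin, whereas Mcpt8 is a protease of basophils. Kit is the receptor for stem cell factor, on which mast cells depend, and other cells carry it too. In the healthy mouse lung mast cells are few and lie mainly around the large airways and in the pleura, and in homogenate of whole lung their transcripts are diluted by those of all other cells. Fewer cells of a type and less RNA per cell cannot be told apart in such samples.

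GATA factors act in mast cells and basophils, and Fra-2 binds AP-1 sites as a dimer with Jun proteins. The promoters of the 2 proteases and the receptor gene that fell in TG lungs, and of Fcer1a, which encodes another chain of the same receptor, are therefore shown as the 250 bases before the start of the gene (RefSeq, GRCm38.p6, written 5′ to 3′ on the strand of the gene). Capitals mark the letters GATAA or, for the other strand, TTATC.
Cma1, chr14:55944676-55944925, minus strand: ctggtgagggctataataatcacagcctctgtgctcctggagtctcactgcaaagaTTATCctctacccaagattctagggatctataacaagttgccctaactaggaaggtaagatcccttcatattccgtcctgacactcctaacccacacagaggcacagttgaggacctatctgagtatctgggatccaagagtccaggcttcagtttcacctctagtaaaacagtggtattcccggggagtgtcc
Cpa3, chr3:20242182-20242431, minus strand: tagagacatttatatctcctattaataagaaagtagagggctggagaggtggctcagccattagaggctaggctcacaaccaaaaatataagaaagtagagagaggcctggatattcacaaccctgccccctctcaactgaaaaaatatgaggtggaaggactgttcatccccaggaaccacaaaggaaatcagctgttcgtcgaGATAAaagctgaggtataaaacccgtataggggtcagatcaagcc
Ms4a2, chr19:11623720-11623969, minus strand: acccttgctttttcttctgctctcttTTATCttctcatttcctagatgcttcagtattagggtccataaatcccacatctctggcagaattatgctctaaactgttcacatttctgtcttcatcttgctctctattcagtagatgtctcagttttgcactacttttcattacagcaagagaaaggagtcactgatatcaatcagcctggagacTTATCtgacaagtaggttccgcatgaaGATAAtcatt
Fcer1a, chr1:173227230-173227479, minus strand: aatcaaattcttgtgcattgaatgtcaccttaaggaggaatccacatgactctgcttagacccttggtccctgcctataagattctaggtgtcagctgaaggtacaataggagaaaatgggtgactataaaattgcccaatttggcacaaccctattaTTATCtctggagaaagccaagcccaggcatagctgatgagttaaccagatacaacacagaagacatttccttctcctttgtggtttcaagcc
Sequences were found for 8 of the 10 genes, all but Tpsb2 and Tpsab1. On either strand, GATAA was present in the windows of 5 of these 8 genes, once in Cpa3, Cma1, Mcpt4 and Fcer1a and 3 times in Ms4a2, whereas it was present in 23% of all 27025 promoter windows of the same length. In Cpa3 it lay 45 to 41 bases and in Ms4a2 10 to 6 bases before the start. The windows of Mcpt8, Kit and Hdc held no GATAA. The AP-1 letters TGANTCA, whose reverse complement has the same form, were present in 0 of the 8 windows and in 6.87% of all promoters. The letters CANNTG, also searched for, were present in the windows of Cpa3, Cma1, Mcpt8, Fcer1a and Hdc and in 66% of all promoters. These are matches of letters and were not tested as binding sites.

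The values are log2 intensities after quantile normalization by the authors, so that a difference of 1 is a doubling. The median over all genes was 6.34, the lowest value in the table was 1.77, and 10% of genes had a mean level below 2.80. Uty, a Y-linked gene that female mice lack, read 2.66 to 4.09 in WT females, which gives a range in which a feature may show background alone. The floor may differ between features, and WT females read 3.75 to 4.11 for the Y-linked Eif2s3y. TG females read 4.00 to 6.17 for Eif2s3y, a log2 difference of 1.30 between the females (adjusted p = 0.0149, limma). For Uty the TG females read 3.26 to 4.00. The cause of the higher Eif2s3y values in TG females was not tested. Correlations between arrays ranged from 0.954 to 0.989. The lowest mean correlations with their own groups were those of TG female replicate 1 (0.969) and TG female replicate 4 (0.971). Among WT mice the lowest was WT male replicate 1 (0.977). TG female replicates 2 and 3 were close to the first 2, at 0.974 and 0.973, so that these values alone do not set the 3 arrays apart. These 3 arrays were named as standing apart in an earlier analysis of the same data, and results below are also given for the other 13 mice where leaving them out changed a call. Lung epithelial markers were bright in every mouse, at a list mean of 14.45 to 14.73 in WT and 14.53 to 14.83 in TG mice. The brighter of the 2 Fosl2 features was at 9.55 ± 0.50 in WT and 9.40 ± 0.44 in TG lungs (SD, n = 8 each), and the dimmer one was at 3.40 ± 0.76 and 8.17 ± 1.36, with every TG mouse above every WT mouse.

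The transcripts of the chymase Cma1, of Cpa3 and of Ms4a2 fell in TG lungs, whereas the tryptase Tpsb2 rose. Thus 3 of the 10 genes were lower, where 7.08% of all genes were, and 1 was higher, where 6.05% of all genes were (limma, p adjusted by Benjamini-Hochberg over all genes, threshold 0.05). The other 6 did not pass the test. By the exact Wilcoxon test the same 3 genes were lower, where 6.11% of all genes were, and 0 were higher. An unadjusted p under 0.05 was found for 6 of the 10 genes by that test and for 8 of them by limma, where 28.1% of all genes had one by either test. Over the 13 mice 3 genes were again lower, namely Cma1, Cpa3 and Ms4a2, and 1 was higher, which was Kit and not Tpsb2, against 5.54% and 5.20% of all genes. The median log2 difference of the 10 genes was -0.76, and that of all genes was -0.03.

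**Figure D1:**
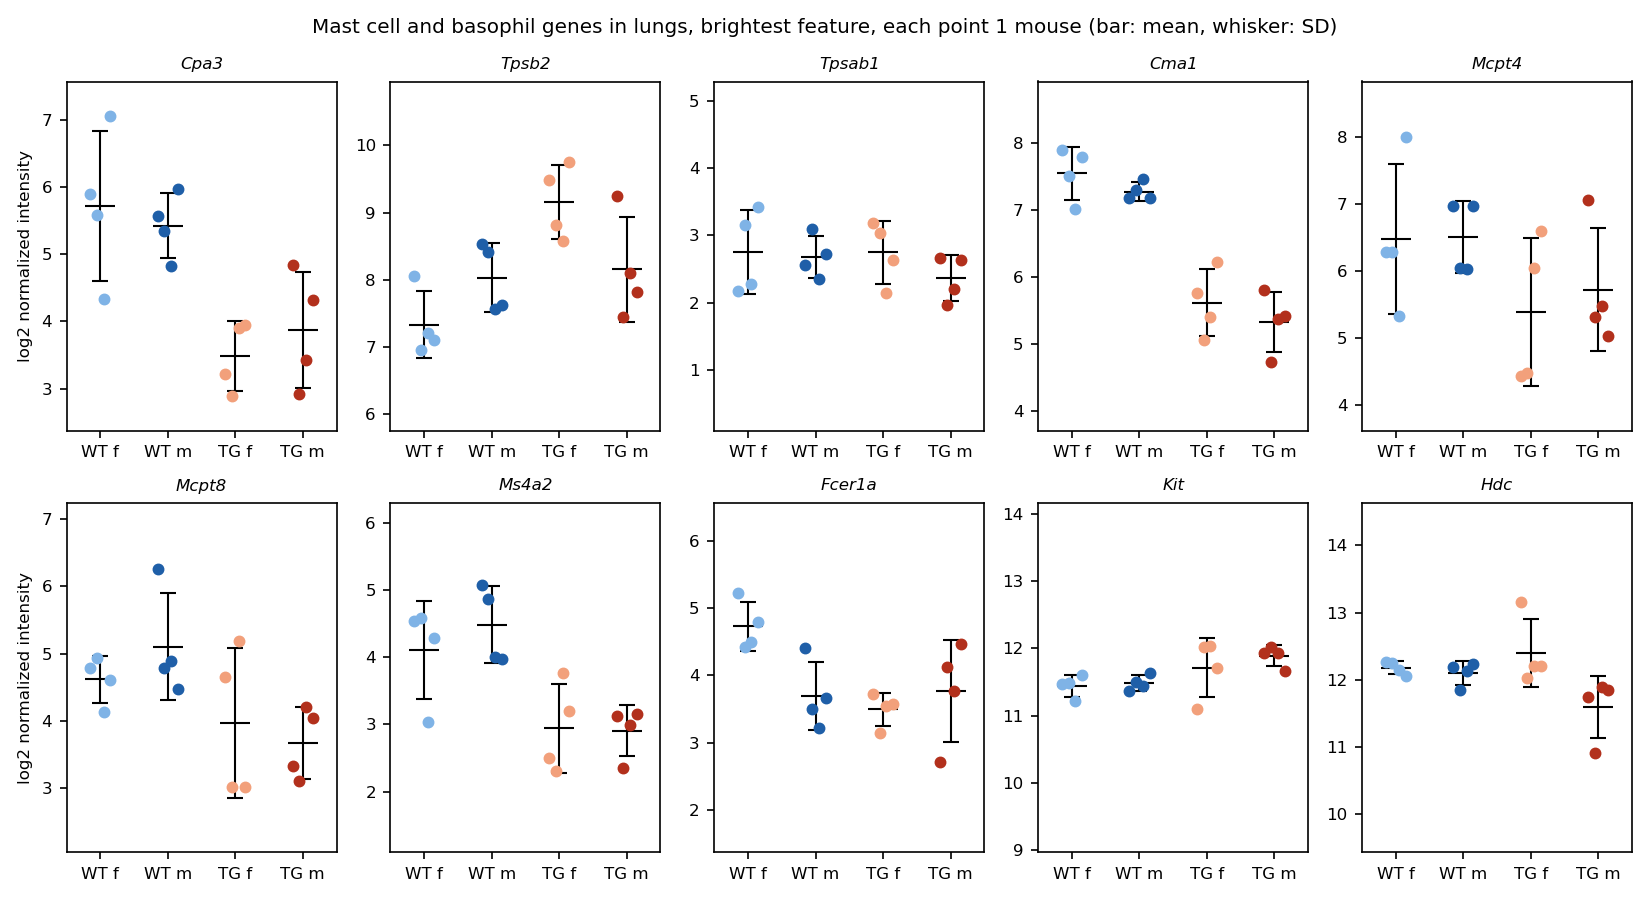
Log2 normalized intensity of the 10 genes on the brightest feature of each, in WT females, WT males, TG females and TG males (f and m on the axis). Each point is 1 mouse, the long bar is the mean and the whiskers are the SD (n = 4 each). The 8 TG mice lie below all 8 WT mice for Cma1, and the 4 TG females lie above the 4 WT females for Tpsb2.

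Cma1, which encodes the chymase Mcpt5 of connective tissue mast cells, had the largest difference and the smallest adjusted p of the 10 genes. WT mice read 7.01 to 7.89 (median 7.38) and TG mice 4.73 to 6.23 (median 5.41). No TG mouse reached the lowest WT mouse, a separation found with TG below in 0.893% of all genes. Cma1 fell by 1.93 on the log2 scale (SE 0.19, 95% interval -2.34 to -1.53), which is 3.82-fold, and its adjusted p was 2.19e-05 by limma. The exact two-sided Wilcoxon p was 0.000155, the lowest possible with 8 mice on each side, or 0.00885 adjusted over all genes.

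Cpa3 encodes carboxypeptidase A3, an exopeptidase stored in mast cell granules. WT mice ranged from 4.33 to 7.05 (median 5.57) and TG mice from 2.89 to 4.84 (median 3.66). The overlap came from WT female replicate 3 at 4.33 and WT male replicate 3 at 4.82, which lay below TG male replicate 1 at 4.84. Cpa3 fell by 1.88 on the log2 scale (SE 0.36, 95% interval -2.65 to -1.12), 3.69-fold, with an adjusted p of 0.00441 by limma and an adjusted exact Wilcoxon p of 0.0155. The lower TG values lay in the range of Uty in females, so that the fall may be larger than measured.

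Tpsb2 encodes the mast cell tryptase Mcpt6 and went the other way. WT mice ranged from 6.95 to 8.53 (median 7.59) and TG mice from 7.45 to 9.75 (median 8.70), and the genotypes overlapped. The 4 TG females, at 9.48, 8.82, 8.58 and 9.75, all lay above the 4 WT females, at 8.06, 6.95, 7.20 and 7.11, as was the case for 9.15% of all genes. The 4 TG males read 9.25, 7.45, 8.10 and 7.81, among the 4 WT males at 8.53, 8.42, 7.56 and 7.62. Over both sexes Tpsb2 rose by 0.97 on the log2 scale (SE 0.27, 95% interval 0.39 to 1.56, adjusted p = 0.0311, limma), which is 1.96-fold. This call was lost in 12 of 30 alternatives, among them the exact Wilcoxon test (adjusted p = 0.101), the 13 mice (0.83, adjusted p = 0.105) and the leaving out of any of 8 single mice, namely WT female replicates 2, 3 and 4, WT male replicates 3 and 4, TG female replicates 1 and 4 and TG male replicate 1, where the adjusted p was 0.0535 to 0.0665 (limma).

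Tpsab1, whose human counterpart encodes the alpha and beta 1 tryptases, is annotated in the GRCm38.p6 reference of C57BL/6J as a transcribed pseudogene. Its feature was among the dimmest of the array, with a mean of 2.64 and 4% of genes dimmer. WT mice ranged from 2.17 to 3.42 and TG mice from 1.96 to 3.18, a log2 difference of -0.17 (SE 0.21, adjusted p = 0.663, limma). At this level neither a fall nor a small rise could be seen. Tryptase genes resemble each other in sequence, and the files hold no probe sequences, so that the transcripts each feature binds could not be checked here.

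Mcpt4, a chymase of connective tissue mast cells, was at 6.49 ± 0.81 in WT and 5.56 ± 0.95 in TG lungs (SD, n = 8 each). WT mice ranged from 5.33 to 8.00 with a median of 6.29, and TG mice from 4.44 to 7.06 with a median of 5.40, so that the groups overlapped widely. Its log2 difference of -0.93 (SE 0.43, 95% interval -1.84 to -0.03) had an adjusted p of 0.165 by limma. For Mcpt8, the basophil protease, WT mice read 4.13 to 6.26 (median 4.79) and TG mice 3.02 to 5.19 (median 3.69). WT male replicate 1 was the highest WT mouse at 6.26, and the next was at 4.93. The log2 difference of Mcpt8 was -1.04 (SE 0.34, 95% interval -1.77 to -0.30, adjusted p = 0.0596, limma), and it passed the test in 4 of 29 alternatives, one of them without TG female replicate 3 (-1.24, adjusted p = 0.0160).

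The receptor genes differed from each other. FcεRI is made of an alpha chain that binds IgE (Fcer1a), a beta chain that amplifies the signal (Ms4a2) and a gamma chain shared with other Fc receptors (Fcer1g). For Ms4a2, WT mice read 3.04 to 5.08 (median 4.41) and TG mice 2.31 to 3.76 (median 3.06). WT female replicate 3, at 3.04, lay among the TG mice, and the other 7 WT mice lay above all of them. It fell by 1.38 on the log2 scale (SE 0.28, 95% interval -1.97 to -0.79, adjusted p = 0.00591, limma). All TG mice lay within or below the range of Uty in females, so that the size of the fall is uncertain. A dimmer feature of Ms4a2 did not show this fall, at 3.06 ± 0.55 in WT and 3.18 ± 0.23 in TG lungs (SD, n = 8 each, log2 difference 0.12, adjusted p = 0.740 over all features, limma). Both of its group means lay in the range of Uty in females.

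Fcer1a was at 4.21 ± 0.69 in WT and 3.63 ± 0.54 in TG lungs (SD, n = 8 each), a log2 difference of -0.58 (SE 0.24, 95% interval -1.09 to -0.08, adjusted p = 0.120, limma). On this gene WT females read 5.22, 4.42, 4.49 and 4.79 and WT males read 4.40, 3.50, 3.21 and 3.67, so that every WT female lay above every WT male, by 0.02 at the nearest, as in 2.12% of all genes. This difference of 1.04 (SE 0.34) had an unadjusted p of 0.00741 and an adjusted p of 0.921 by limma, where 4 genes of all, 0.0165%, were called between the WT sexes and 4.67% had an unadjusted p under 0.05. TG females read 3.72, 3.14, 3.54 and 3.57, all below the WT females, as were those of 11.7% of all genes, and TG males read 2.71, 4.12, 3.77 and 4.47, on both sides of the WT males.

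Kit was bright on its first feature and had a positive difference on all 3. On the brightest feature WT mice ranged from 11.22 to 11.64 (median 11.48) and TG mice from 11.10 to 12.03 (median 11.94). TG female replicate 1, at 11.10, was the lowest of all 16 mice, and each of the other 7 TG mice lay above all 8 WT mice. The log2 difference was 0.33 (SE 0.13, 95% interval 0.05 to 0.62, adjusted p = 0.108, limma), and it was 0.44 with an adjusted p of 0.0147 without TG female replicate 1. The dimmer features had log2 differences of 0.69 and 0.70 with adjusted p of 0.0895 and 0.0840 over all features (limma), from 8.01 ± 0.59 to 8.70 ± 0.51 and from 7.44 ± 0.37 to 8.14 ± 0.62 (SD, n = 8 each). In females the second feature was called higher (1.11, adjusted p = 0.0496 over all features) and the third was not (0.91, adjusted p = 0.0974, limma). Over the 13 mice all 3 features passed the test, with log2 differences of 0.47, 0.89 and 0.92 and adjusted p of 0.0169, 0.0396 and 0.0229 over all features (limma).

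Hdc encodes the enzyme that makes histamine from histidine, and its 3 features did not move alike. The brightest read 12.14 ± 0.13 in WT and 12.00 ± 0.62 in TG lungs (SD, n = 8 each), with 11.85 to 12.27 in WT and 10.91 to 13.15 in TG mice. Of all genes 94.1% were dimmer than this feature, and which cells gave its signal was not tested. The TG mice spread to both sides of the WT mice, with TG female replicate 1 highest and TG male replicate 2 lowest. The log2 difference was -0.14 (SE 0.17, 95% interval -0.51 to 0.23, adjusted p = 0.639, limma). The second feature fell from 7.34 ± 0.72 to 6.12 ± 0.70 (SD, n = 8 each, log2 difference -1.22, SE 0.29, limma, adjusted p = 0.0164 over all features), where 5.45% of all features were lower, but over the 13 mice it had -0.89 with an adjusted p of 0.0922. The third feature had a log2 difference of -0.66 (SE 0.21, adjusted p = 0.0563 over all features, limma). In females it was called lower (-0.98, adjusted p = 0.0414 over all features), and in males it was not (-0.35, adjusted p = 0.796, limma). On it all 4 TG females lay below all 4 WT females, as in 11.7% of all genes. Whether Hdc passed the test thus depended on the feature. The mean of all 3 features differed by -0.67 on the log2 scale (adjusted p = 0.0167 over all genes, limma).

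**Figure D2:**
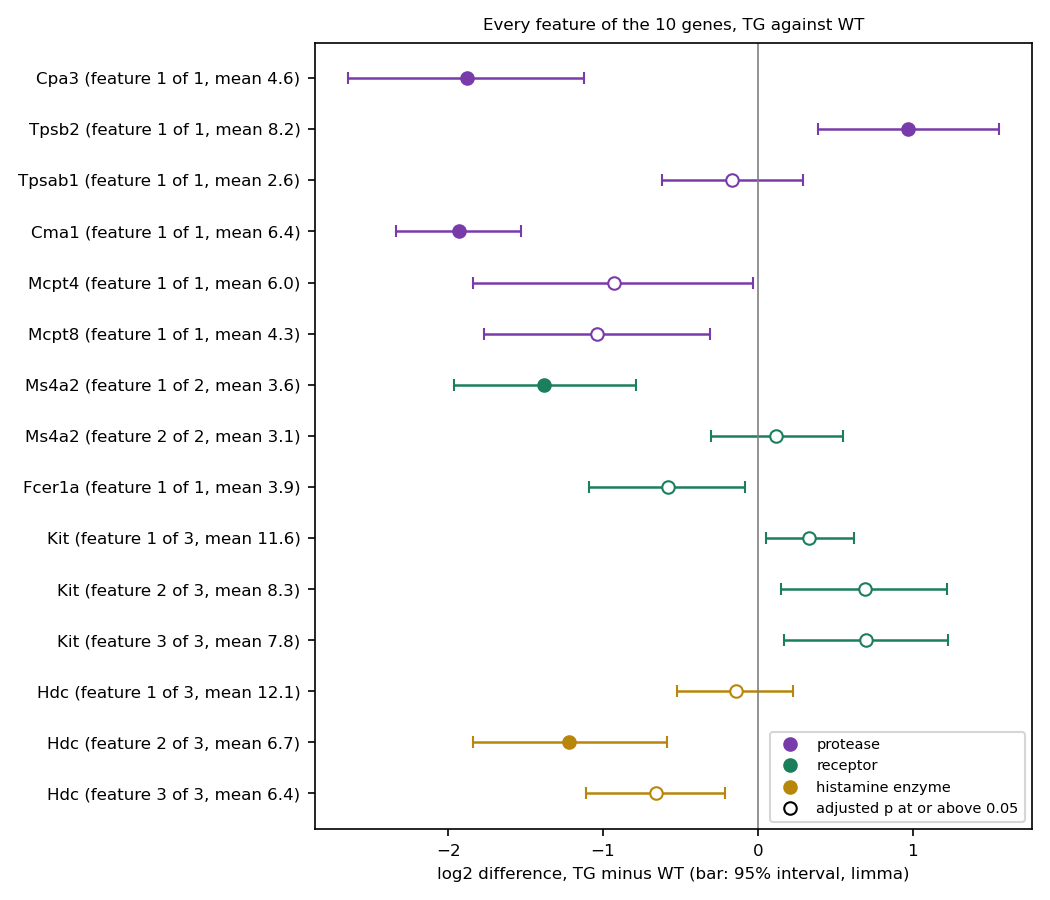
Log2 difference of TG minus WT for each of the 15 features of the 10 genes, with the 95% interval from limma. Colours give the role of the gene, filled points passed an adjusted p of 0.05 over all features and open points did not. Features are numbered by brightness, and the mean level over the 16 mice stands beside each name. The 3 Kit features lie to the right of 0 and the Hdc features differ in size, while the features of Cma1 and Cpa3 lie farthest to the left.

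Proteases and receptors were set side by side without a test, because the genes were chosen by name with earlier results known. Of the 6 proteases 1 was higher, 2 were lower and 3 did not pass, and their median log2 difference was -0.99, with the single positive one at 0.97 for Tpsb2. Of the 3 receptor genes 1 was lower and 2 did not pass, and their median was -0.58, with Kit positive at 0.33. Of all genes 6.05% were higher and 7.08% lower, and the median of all genes was -0.03. The mean deviation of the 6 proteases from their WT means was -0.742 to 0.539 in WT mice and -1.54 to -0.296 in TG mice. That of the 3 receptors was -0.441 to 0.417 and -0.889 to -0.218. On either score the genotypes overlapped. Proteases minus receptors, per mouse, gave -0.357 to 0.303 in WT mice and -1.045 to 0.439 in TG mice. TG male replicate 2 was at the low end and TG male replicate 1 at the high end, so that the proteases were not lower than the receptors in every TG mouse.

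In females 3 of the 10 genes were lower on their brightest feature, where 9.00% of all genes were. On the brightest feature 1 was higher, where 7.15% of all genes were (limma). The lower ones were Cpa3 with a log2 difference of -2.22 (adjusted p = 0.0108), Cma1 with -1.93 (adjusted p = 0.00103) and Fcer1a with -1.24 (adjusted p = 0.0226), and the higher one was Tpsb2 with 1.83 (adjusted p = 0.00765, all from limma). Without the 3 arrays, which left 2 TG females, Cma1 remained called in females and the others did not, with log2 differences of -2.32 for Cpa3, -1.39 for Fcer1a and 1.37 for Tpsb2. Fcer1a also lost its call in females without WT female replicate 1 (-1.08) or 4 (-1.22) or without TG female replicate 2 (-1.12) or 4 (-1.27), at adjusted p of 0.0501 to 0.0719 (limma). Ms4a2 had -1.17 in females (adjusted p = 0.0542) and was called there without WT female replicate 3 (-1.53), TG female replicate 3 (-1.44) or WT male replicate 1 (-1.17, limma). In males Cma1 alone was called, with -1.94 (adjusted p = 0.00166, limma), where 0.337% of all genes were lower and 0.309% higher. Negative differences that did not pass were found for 6 of the 10 genes in males, the largest being -1.58 for Ms4a2 (adjusted p = 0.0983), -1.54 for Cpa3 (adjusted p = 0.262) and -1.43 for Mcpt8 (adjusted p = 0.283, limma), and all 4 TG males lay below all 4 WT males for Ms4a2 and Mcpt8. Without WT female replicate 3, which enters the shared estimate of the spread, Ms4a2 was called in males too (adjusted p = 0.0490, limma). All 4 TG males lay below all 4 WT males in 4.03% of all genes.

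The difference between the female and the male effect was largest for Tpsb2, at 1.71 (SE 0.55, unadjusted p = 0.00710), and for Fcer1a, at -1.32 (SE 0.47, unadjusted p = 0.0141, limma). The adjusted p was 0.330 and 0.331, and none of the 10 genes passed, as none of the 24306 genes did, of which 12.9% had an unadjusted p under 0.05. For Cma1 the difference was 0.01 (SE 0.38). The effects in the sexes are thus not shown to differ for any of the 10 genes.

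**Figure D3:**
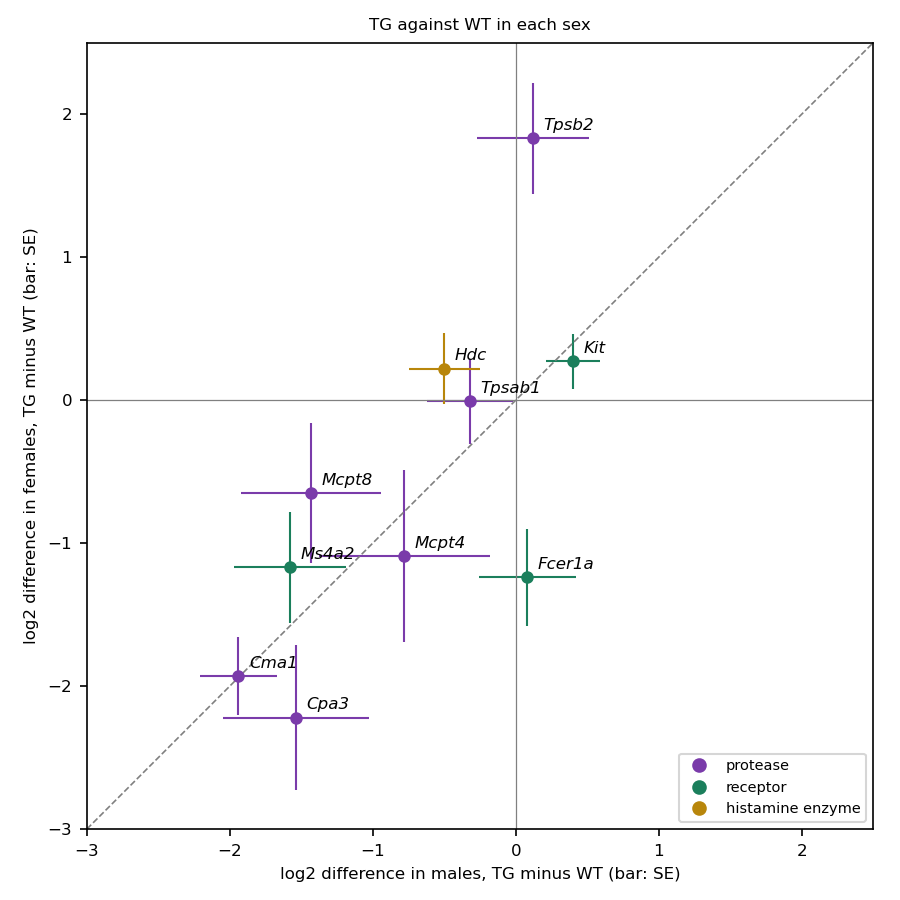
Log2 difference of TG minus WT in females against that in males for the 10 genes, with SE bars from limma (n = 4 mice in each of the 4 groups) and the line of equal effects dashed. Tpsb2 lies above the line at 1.83 in females and 0.12 in males, Fcer1a lies below it at -1.24 and 0.08, and Cma1 lies close to it at -1.93 and -1.94.

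Within the groups, some of the 10 genes varied together from mouse to mouse. After each value was taken as its deviation from the mean of its own group, Cpa3 and Mcpt4 had the highest correlation of the 45 pairs (Pearson's r 0.82, Spearman's rho 0.78, r 0.73 without the 2 mice farthest from the median of Cpa3, 16 mice). Cpa3 also varied with Cma1 (r 0.66, rho 0.56, 0.59 without those 2 mice) and with Ms4a2 (r 0.62, rho 0.48, 0.54). The tryptase Tpsb2 varied with Cma1 (r 0.65, rho 0.59, 0.52), although the 2 genes differed in opposite directions between the genotypes. Mcpt8 varied with Ms4a2 (r 0.58, rho 0.58, 0.36) and with Hdc (r 0.48, rho 0.51, 0.73), and which of them was closer turned on the 2 mice left out. Its r with Cpa3 was 0.17. Kit and Hdc ran opposite to each other (r -0.70, rho -0.40, -0.45 with 2 mice left out). These values are descriptions without a test, and mice of a group share its mean. Among the 12153 genes with a mean level above the median, the deviations of Cpa3 were most like those of Pias1 (r 0.87), Zfp280b (0.82), Phf12 (0.82), Atp6v1h (0.77) and Get3 (0.76). Those of Mcpt8 were most like those of Ppat (r 0.86), Cpxm1 (0.84), Exoc5 (0.82), Ccl8 (0.80) and Nop58 (0.80). These are the highest of 12153 values over 16 mice, and how high r would reach without any link was not determined.

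Other granule proteases of these cells did not pass the test. Of 7, which were Mcpt1, Mcpt2, Mcpt9, Cma2, Tpsg1, Ctsg and the basophil protease Prss34, 0 were higher and 0 were lower, with a median log2 difference of 0.02, and 0 had an unadjusted p under 0.05 by limma or by the exact Wilcoxon test. Cma2, the brightest of them, was at 5.90 ± 0.67 in WT and 5.38 ± 0.83 in TG lungs (SD, n = 8 each, log2 difference -0.52, adjusted p = 0.375, limma), and the means of the others lay between 2.62 and 3.95 in either genotype, where a fall could hardly be seen. Cma1, Mcpt4 and Mcpt8 belong to the chymase locus on chromosome 14. Of its 15 protein-coding genes from Cma1 to Gzmb, all measured, Cma1 and Gzmb were lower and Gzme was higher, and the median log2 difference was 0.11. Gzmb, the granzyme B of cytotoxic lymphocytes at the other end of the locus, fell by 3.07 on the log2 scale (adjusted p = 2.38e-06), and Gzme was near the floor, with means of 2.23 in WT and 2.99 in TG lungs (adjusted p = 0.0415, limma), and lost its call over the 13 mice (0.50, adjusted p = 0.233).

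The gamma chain of the receptor fell too. Fcer1g fell from 11.99 ± 0.23 to 10.93 ± 0.49 (SD, n = 8 each), a log2 difference of -1.06 (SE 0.17, adjusted p = 0.00131, limma). It is also expressed by NK cells, monocytes and macrophages. Of 11 measured genes of IgE receptor signalling 1 was higher, 2 were lower and 8 did not pass, with a median of -0.21. The other lower one was the phospholipase Plcg2 (-0.64, adjusted p = 0.00919) and the higher one was Plcg1 (0.43, adjusted p = 0.00468, limma). Over the 13 mice 2 were higher, Plcg1 and Gab2, and the same 2 lower. Syk, the kinase recruited to the receptor, had -0.21 (adjusted p = 0.293), and Btk had -0.45 (adjusted p = 0.204, limma).

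The ligand of Kit did not pass the test. Kitl was at 10.85 ± 0.21 in WT and 10.70 ± 0.42 in TG lungs (SD, n = 8 each, log2 difference -0.15, adjusted p = 0.583, limma). Of 9 measured growth factors and receptors 1 was higher, 0 were lower and 8 did not pass, with a median of 0.24. Il3ra, the alpha chain of the receptor for IL-3, which drives the growth of basophils, rose from 9.55 ± 0.37 to 10.53 ± 0.22 (SD, n = 8 each, log2 difference 0.98, adjusted p = 0.00154, limma). Il3 itself was dim, at 2.72 in WT and 2.84 in TG lungs. The alarmin Il33 had 0.24 (adjusted p = 0.360) and Tslp, which acts on basophils, had 0.34 (adjusted p = 0.0578, limma). In males Tslp was called higher (0.82, adjusted p = 0.0259, limma), where 0.309% of all genes were. All TG males lay above all WT males for Tslp. In females it had -0.13 (adjusted p = 0.634, limma). The difference between the female and the male effect passed the test for none of the 24306 genes.

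Of 11 transcription factors of the mast cell and basophil lineages 2 were higher, 1 was lower and 8 did not pass, with a median of -0.03. Gata2, required by mast cells and also expressed in endothelium, was at 10.99 ± 0.27 in WT and 11.07 ± 0.21 in TG lungs (log2 difference 0.08, adjusted p = 0.726), and Gata1 was at 4.94 ± 0.56 and 3.99 ± 0.75 (SD, n = 8 each, log2 difference -0.95, adjusted p = 0.0611, limma). Mitf, a factor that mast cells need, had -0.12 (adjusted p = 0.541). Tal1 (0.64, adjusted p = 0.0136) and Stat5a (0.57, adjusted p = 0.0243) were higher and Lyl1 (-0.41, adjusted p = 0.0300) was lower (limma). Over the 13 mice Lyl1 lost its call (-0.27, adjusted p = 0.151). Of 10 other surface genes of these cells 1 was lower and 9 did not pass, with a median of 0.09. The lower one was Slc6a4, the serotonin transporter, which lung endothelium also expresses (-0.69, adjusted p = 0.0392, limma), and its call was lost over the 13 mice (-0.49, adjusted p = 0.144). Mrgprb2, the receptor of mouse mast cells for basic secretagogues, was dim, at 3.09 in WT and 3.32 in TG lungs.

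Of 8 measured enzymes and receptors of lipid mediators 3 were lower and 5 did not pass. All 8 differences were negative, and their median was -0.57. Alox5 fell by 1.0 (adjusted p = 0.00180) and its partner Alox5ap, which presents arachidonic acid to it for leukotriene synthesis, fell by 0.88 (adjusted p = 0.00308) on the log2 scale. Ptgs2, an inducible cyclooxygenase, fell by 1.02 (adjusted p = 0.0209, limma). Hpgds, the prostaglandin D synthase of mast cells, had -0.10 (adjusted p = 0.870) at a WT mean of 4.07. Over the 13 mice Ptgs2 lost its call (-0.90, adjusted p = 0.0881). Alox5 and Alox5ap are also expressed by macrophages and neutrophils.

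Of 11 genes of histamine handling and granule storage 2 were lower and 9 did not pass, with a median of -0.17, and over the 13 mice 0 were lower and 2 had an unadjusted p under 0.05 (limma). Srgn encodes serglycin, the granule proteoglycan that binds these proteases and is found in many blood cells, and it fell by 0.77 (adjusted p = 0.0173). Ndst2, an enzyme of heparin sulfation needed for mast cell granules, fell by 0.47 (adjusted p = 0.0443, limma). Hnmt, which inactivates histamine, had -0.17 (adjusted p = 0.430) and the vesicular transporter Slc18a2 had -0.30 (adjusted p = 0.647, limma). Of the histamine receptors Hrh1, Hrh2, Hrh3 and Hrh4, none passed.

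**Figure D4:**
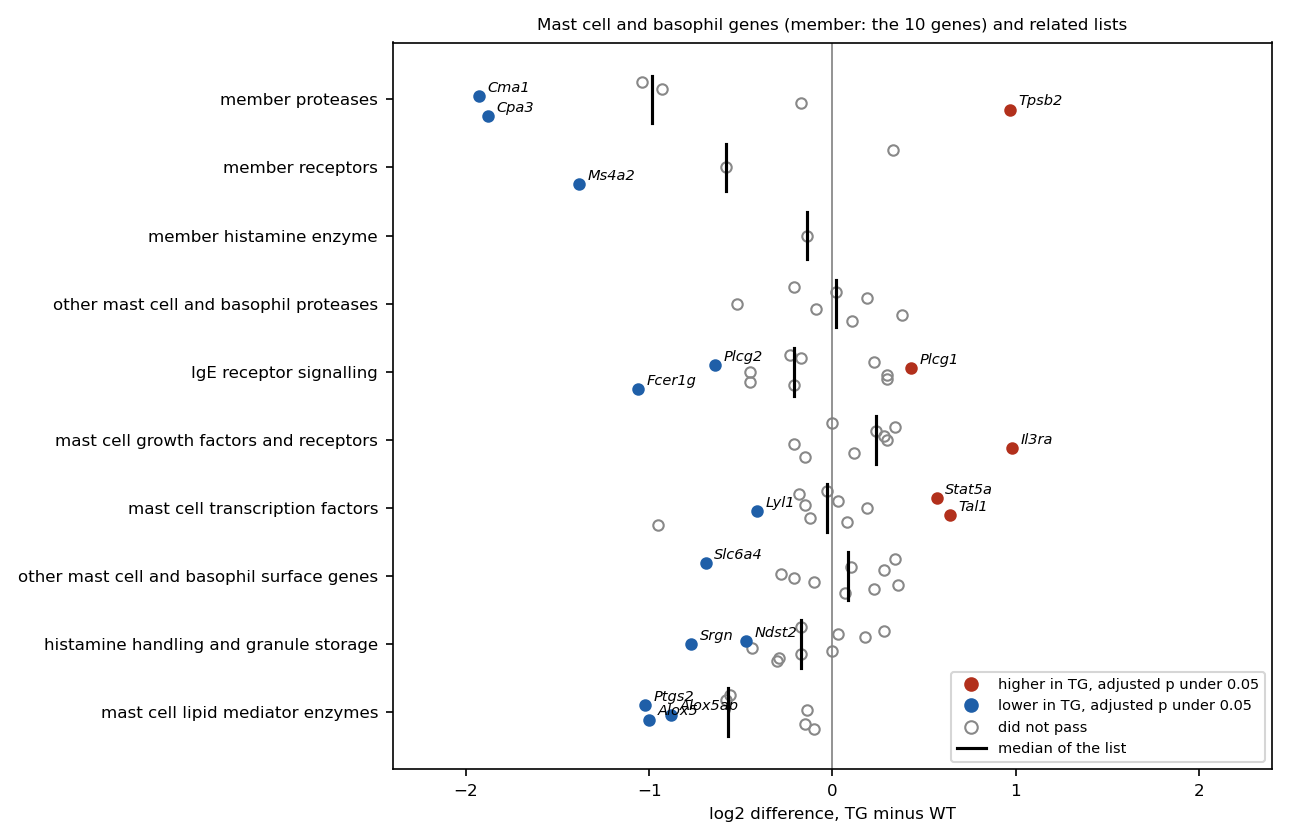
Log2 difference of TG minus WT for the 10 genes by role and for 7 other lists of mast cell and basophil genes. Each point is 1 gene, red and blue points passed the test as higher and lower in TG (limma, adjusted p under 0.05 over all genes), open points did not, and the black bar is the median of the list. The median was -0.99 for the proteases and -0.58 for the receptors, and that of the other lists lay between -0.57 and 0.24.

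Markers of other cells and tissues also differed between the genotypes, and their part in the results above was not tested. Of 5 adipose markers 3 were lower and all 5 differences were negative. Their mean level ranged from 7.19 to 9.46 in WT females and from 5.95 to 6.31 in TG females, whereas in males it was 7.22 to 8.13 in WT and 6.77 to 8.05 in TG. The median log2 difference of the adipose list was -1.84 in females and -0.08 in males. Beside it, Fcer1a had -1.24 and 0.08, Cpa3 -2.22 and -1.54, Cma1 -1.93 and -1.94, and Mcpt4 -1.09 and -0.78. Tpsb2 had 1.83 and 0.12, Ms4a2 -1.17 and -1.58, and Mcpt8 -0.65 and -1.43. Tpsab1 had -0.01 and -0.32, Kit 0.27 and 0.40, and Hdc 0.22 and -0.50. Of 5 heart muscle markers 1 was lower, with list means of 8.88 to 12.50 in WT and 7.54 to 11.27 in TG mice. Of 5 NK cell markers 4 were lower, with a median of -3.11 and list means of 7.39 to 8.41 in WT and 4.26 to 5.46 in TG mice. Of 6 eosinophil markers 2 were lower, Siglecf (-1.23, adjusted p = 0.00587) and Ear6 (-1.14, adjusted p = 0.0324, limma), while 3 had positive differences. The defining markers Prg2 and Epx were near the floor in both genotypes, at 2.93 and 2.52 in WT lungs. By flow cytometry the paper reports more eosinophils and fewer alveolar macrophages in TG lungs of this age, and it used SiglecF to gate alveolar macrophages too. Of 7 neutrophil markers 2 were lower and of 8 markers of trachea and cartilage 2 were higher, while of 5 platelet markers 0 were called in either direction and 0 had an unadjusted p under 0.05 (limma). Lung epithelial markers such as Sftpc and Scgb1a1 reached the top of the scale, 16, so that a change in them could hardly be seen. Over the 13 mice the lower genes were 2 adipose, 1 heart muscle, 5 NK cell, 3 eosinophil and 1 neutrophil marker. So were 1 T cell, 1 B cell, 1 alveolar macrophage and 1 stem and progenitor cell marker. Higher over the 13 mice were 2 markers of trachea and cartilage, 1 mesothelial marker and 2 stem and progenitor cell markers. With all 16 mice, lower genes were also 1 of 4 T cell, 2 of 4 B cell and 1 of 5 alveolar macrophage markers, 1 of 5 mesothelial markers was higher, and of 4 stem and progenitor cell markers 1 was higher and 1 lower.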

How the data were processed

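Lung RNA was amplified and hybridized to 1-colour Agilent mouse arrays. Trizol with a column and Cy3 are named in the labels, an RNeasy kit and Cy5 in the paper's methods. Background correction and quantile normalization were done by the authors in limma, and the deposited values were log2 intensities of single features without flags or a measure of background. No genome build or limma version is given in the sources used here.

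Of 62976 features 43941 had 1 gene symbol and 19035 none. Symbols were updated through a gene table of GRCm38.p6 (33704 by accession, 463 by synonym). The brightest feature stood for each of 24306 genes. Limma 3.58.1 in R 4.3.3 was fitted with 4 group means, and Benjamini-Hochberg adjustment ran over all genes or, for single features, over all 43941 features. The exact Wilcoxon test was run per gene. The script was tested on simulated data. Alternatives were genotype alone, a replicate block, the mean of features, filters on dim genes, median centring, cyclic loess, eBayes with trend or robust, array weights, each sex alone, 13 mice and each mouse left out. All columns of values were used. The number of arrays limits the precision.

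The genes and lists were chosen with earlier results of these data known. The rule for named genes took all 10 genes, Fosl2, called genes of each other list and up to 4 with its smallest adjusted p, and the 5 genes most like Cpa3 and Mcpt8. Called genes of marker lists are mostly given as counts. Further genes of the lists (among them Kitl, Gata2, Mitf, Hpgds and Slc18a2) were named for their role after their values were seen. Figures were drawn with matplotlib 3.10.9 in Python 3.11.15.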

Additional observations from a re-analysis of the deposited data

Results flagged for a closer look

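A mouse lay far from the others of its group in 8 of 90 groups of values, where chance gives about 1 in 20. The groups are not independent, because those of each sex lie within those of the genotype and some features belong to the same gene. WT male replicate 1 read 6.26 for Mcpt8, and the other WT mice read 4.13 to 4.93. WT male replicate 2 read 4.25 on the dimmer Ms4a2 feature, and the other WT mice 2.52 to 3.29. TG female replicate 1 read 11.10 on the brightest Kit feature, and the other TG mice 11.66 to 12.03. WT female replicate 3 read 6.96 on the second Kit feature, and the other WT females 7.94 to 7.99. The same mouse read 8.12 on the second Hdc feature, and the other WT females 6.82 to 6.93. TG male replicate 2 read 10.91 on the brightest Hdc feature, and the other TG males 11.74 to 11.89. This mouse also read 4.98 on the third Hdc feature, where the other TG males read 6.30 to 6.41 and all other TG mice 5.80 to 6.50.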

How the results depend on the processing

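Of 1315 alternative values 1232 kept their direction and their side of the threshold. Cma1 kept its call in all 30 alternatives (highest adjusted p = 0.0139). Cpa3 lost it in 1 of 29, with males alone (adjusted p = 0.218), and Ms4a2 in 2 of 28, with females alone (0.113) and males alone (0.0894). Tpsb2 lost it in 12 of 30 (up to 0.948, with males alone). The mean correlation of deviations was 0.02 for mice of the same replicate number (24 pairs) and -0.006 for other numbers (72 pairs). Of 16 arrays 6 were closest to one of their own number. Whether the replicate numbers pair the mice was not tested. With the replicate number as a block 1412 genes were higher and 1676 lower, and 1 and 3 of the 10 genes. The cause of the changes below was not tested.

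Genes higher and lower numbered 2348 and 968 with arrays centred on their medians, 974 and 1027 with females alone and 39 and 50 with males alone, where fewer mice were fitted. Leaving out each mouse gave 1007 to 1892 higher and 1067 to 2371 lower. Lower genes were fewest without TG male replicate 1 (1067), WT male replicate 3 (1083), WT female replicate 2 (1132) and WT female replicate 1 (1145). Centring moved the median of all genes by 0.10 and the share of calls that were higher from 46.1% to 70.8%, against 55.3% with cyclic loess. Of the 10 genes 0 were higher with genotype alone, males alone or the exact Wilcoxon test. Without the dimmest 50%, where fewer of the 10 were tested, 2 were higher (Tpsb2 and Kit), as with centring and with array weights. In these settings, in that order, 1788, 2348 and 1971 of all genes tested were higher, against 1471 in the main fit. Leaving out each mouse gave 0 to 1 of the 10 genes higher and 3 to 4 lower. Lower ones numbered 1 with males alone and without the dimmest 50% of genes, where fewer of the 10 were tested. In females 1 was lower without the dimmest 50% and without the 3 arrays, where 0 were higher. Leaving out each mouse gave 2 to 4 lower and 1 higher in females and 1 to 2 called in males (2 without WT female replicate 3).

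No value that changed its sign was called. Fcer1a had 0.08 with males alone and Hdc 0.22 with females alone. In females Tpsab1 had 0.11 with centring, 0.06 with array weights and -0.20 to 0.21 leaving out each mouse, and Hdc had -0.45 with the mean of features, -0.07 without the 3 arrays and -0.04 to 0.34 leaving out each mouse. In males, leaving out each mouse gave -0.16 to 0.43 for Fcer1a and -0.25 to 0.35 for Tpsb2. The difference of the sexes' effects was -0.13 for Cma1 with array weights, -0.33 without the 3 arrays and -0.19 to 0.20 leaving out each mouse. It was 0.37 for Kit with the mean of features, 0.21 without the 3 arrays and -0.24 to 0.07 leaving out each mouse, and -0.71 to 0.20 for Mcpt4. Between WT females and males it was -0.04 with array weights and -0.15 to 0.27 for Tpsab1, and 0.21 with array weights, 0.13 without the 3 arrays and -0.53 to 0.36 for Mcpt4. It was -0.16 to 0.75 for Cpa3 and -0.09 to 0.04 for Kit.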
